A study of Mus musculus with 4 samples.

Results

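The genes of meiotic recombination and chromosome synapsis were followed in whole testes of mice at postnatal day 9. The list named 44 genes, and 34 were found on the array by matching RefSeq transcript accessions to mouse gene symbols, out of 17274 genes named in this way. Each of the 34 was represented by 1 transcript. The other 10, Sycp2, Syce1, Hormad2, Trip13, Prdm9, Mei1, Atr, Hsf2bp, Rnf212 and Mlh3, were not analysed here. The rule names genes by function, though the list was drawn up with earlier results of these data known.

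The samples were 1 control array and 3 Dmrt1 knockout arrays. All 4 were labelled as male juvenile testes with the genotype term DHH-cre; the control was Cre-negative and the knockouts were Cre-positive and labelled Dmrt1 KO. The product of Dmrt1 is a DM domain protein that binds DNA in both Sertoli and germ cells. Desert hedgehog (Dhh) is expressed by Sertoli cells within the seminiferous tubule, so the driver names the supporting cell and not the germ cell. The strain, the floxed allele and whether each array came from a separate animal are not given in the sources used here, so the p-values reflect only how these arrays scatter, which may be technical. With whole-testis RNA, fewer cells of a type and less RNA per cell cannot be told apart. Values were intensities of a one-colour array normalised by the authors with RMA (robust multi-array average), and differences are given as log2 of knockout minus control.

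Meiosis makes haploid cells by pairing homologous chromosomes and exchanging DNA between them. Cohesin rings hold sister chromatids on a proteinaceous axis, HORMA domain proteins mark unsynapsed axes, and the synaptonemal complex zips the paired axes together. Spo11 cuts DNA, the Mre11 complex and Exo1 trim the ends, Dmc1 invades the homologous chromosome, and the Msh4-Msh5 group selects sites that become crossovers. In mice the first germ cells enter meiosis near the end of the first week after birth, so a juvenile testis of this age holds spermatogonia and the earliest spermatocytes. In mouse spermatogonia, Dmrt1 is known to restrain entry into meiosis.

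For Dmrt1 itself the control array gave 14.16 on the log2 intensity scale, and knockout replicates 1, 2 and 3 gave 13.23, 13.38 and 13.66. All 3 knockout arrays lay below the control, but the difference of -0.73 ± 0.27 (SE) did not pass the test (limma, adjusted p = 0.586). The position of its probes relative to the deleted part is not known here, so the value does not check the labels.

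None of the 34 genes passed the test in either direction. With all arrays, the largest difference toward the knockouts was that of Smc1b, a cohesin subunit of meiotic cells, at 0.59 ± 0.35 (SE, 1 control and 3 knockout arrays). The largest toward the control was that of Rec8, a meiotic kleisin, at -0.53 ± 0.46. Rec8 was at -0.95 without replicate 1 and at -0.26 without replicate 2, where it was not the largest. Smc1b was at 0.38 without replicate 1. Dmc1 was larger without replicate 3 (0.88, against 0.84 for Smc1b). Spo11 and Tex12 were larger without replicate 2 (0.59 and 0.57, against 0.56 for Smc1b). Differences were tested with limma over all 25631 transcripts and called at a Benjamini-Hochberg adjusted p under 0.05, which called 0.655% of them (0.499% lower, 0.156% higher). No member had an unadjusted p under 0.05, against 6.42% of all transcripts, and the smallest adjusted p was 0.92. The median difference of the members was 0.05, against 0.00 over all transcripts, with 19 above 0 and 15 below.

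The intervals give the range of each difference under the fit, and cannot bound an effect of genotype, because the scatter may be technical. For 26 of the 34 genes the 95% interval of the difference lay wholly inside a 2-fold change in either direction. This held for 18 of the 19 measured genes that dividing somatic cells also use, and for 8 of the 15 that are restricted to meiosis or enriched in germ cells. The 15 are called meiosis-restricted here and the 19 generally used. Psmc3ip and Mnd1, partners of Dmc1, were placed among the 19, and both their intervals lay inside a 2-fold change. The shares of the 2 classes therefore depend on where these genes are placed. The spread came only from the 3 knockout arrays, and the single control was taken to vary as they do. In simulated data of this design a log2 change of 1 was detected for 2 of 50 transcripts, and a log2 change of 2 for 42 of 50. The simulated noise followed the spread over all transcripts. The median SD among knockout arrays was 0.43 in the meiosis-restricted genes and 0.21 over all transcripts, so these counts do not hold for those genes.

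**Figure D1:**
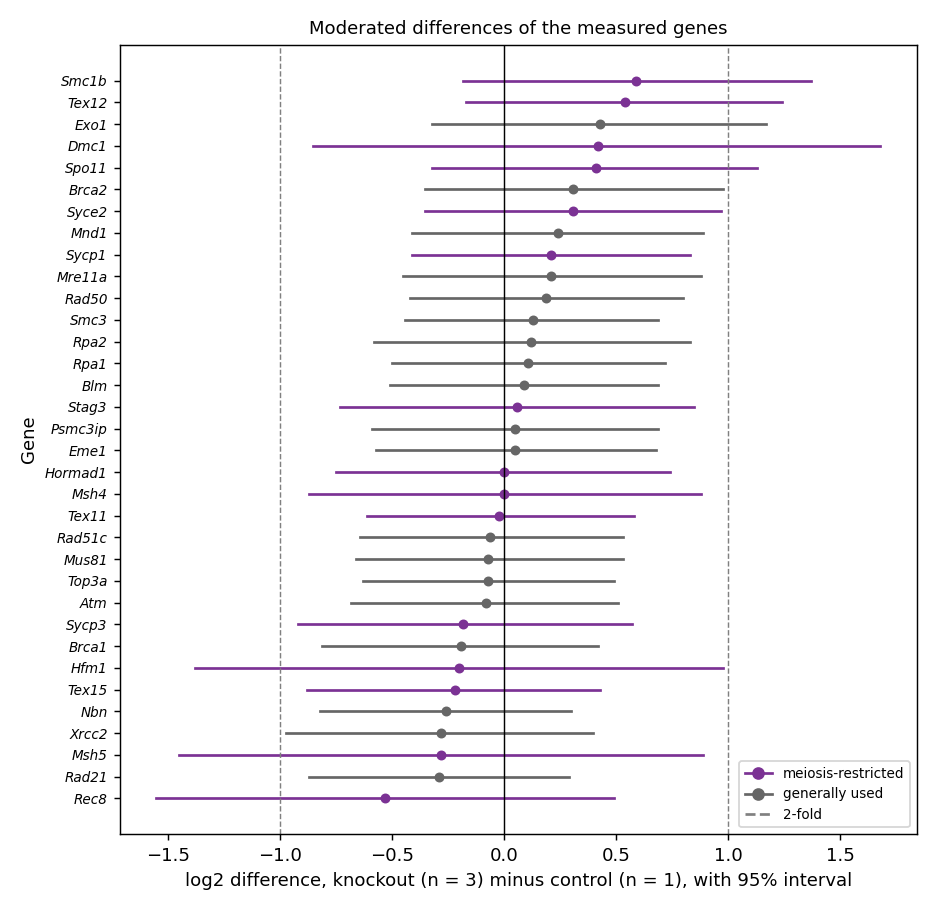
Log2 difference of knockout (3 arrays) minus control (1 array) for the 34 measured genes, with 95% intervals from the moderated fit; purple marks the 15 meiosis-restricted and grey the 19 generally used genes, and dashed lines mark 2-fold. Every interval crosses 0, and the widest belong to Dmc1, Hfm1, Msh5 and Rec8.

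In most members the knockout arrays were spread more widely than their mean differed from the control, and the spread was wider in the meiosis-restricted genes. Knockout replicate 1 had the highest value of the 3 knockout arrays in 15 of 15 meiosis-restricted genes, and in 9 of 19 generally used genes. The classes were assigned with earlier results of these data known. Psmc3ip and Mnd1, partners of Dmc1, were counted as generally used. Replicate 1 was the highest for Psmc3ip but replicate 2 for Mnd1, so the full count depends on where Mnd1 is placed. Over all transcripts that array was the highest of the 3 in 30.0%. It also lay above the control in 15 of the 15, against 7 of 15 for replicate 2 and 5 of 15 for replicate 3. The median difference from the control over these genes was 0.64 in replicate 1, 0.00 in replicate 2 and -0.32 in replicate 3. Over the generally used genes the same medians were 0.08, -0.03 and -0.08. Only 1 array carries this pattern and it was noticed in the data, so no test was made of it.

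Between knockout arrays, the median log2 difference over the 15 meiosis-restricted genes was 0.60 for replicate 1 minus replicate 2 and 0.82 for replicate 1 minus replicate 3. Replicate 2 minus replicate 3 was 0.11, with 10 of 15 genes higher in replicate 2. Over all transcripts these 3 medians were -0.03, -0.01 and 0.00. The SD among the knockout arrays had a median of 0.43 over the meiosis-restricted genes, 0.22 over the generally used genes and 0.21 over all transcripts. For 24 of the 34 genes (70.6%) the difference from the control was smaller than the SD among the knockouts, against 52.3% of all transcripts.

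All 3 knockout arrays lay above the control in 8 of the 34 genes (23.5%) and below it in 3 (8.82%), and the control lay within their range in the other 23. Over all transcripts the shares were 25.6% above, 24.1% below and 50.2% within. The count above the control is thus near that of all transcripts. The 8 genes were Smc1b, Smc3, Sycp1, Syce2, Tex12, Spo11, Mnd1 and Brca2, and the 3 were Rad21, Nbn and Top3a. No gene was at least 2-fold apart from the control in every knockout array, nor at least 1.5-fold, in either direction. The shares of all transcripts at 2-fold were 0.753% lower and 0.398% higher, and at 1.5-fold 1.88% lower and 1.60% higher.

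**Figure D2:**
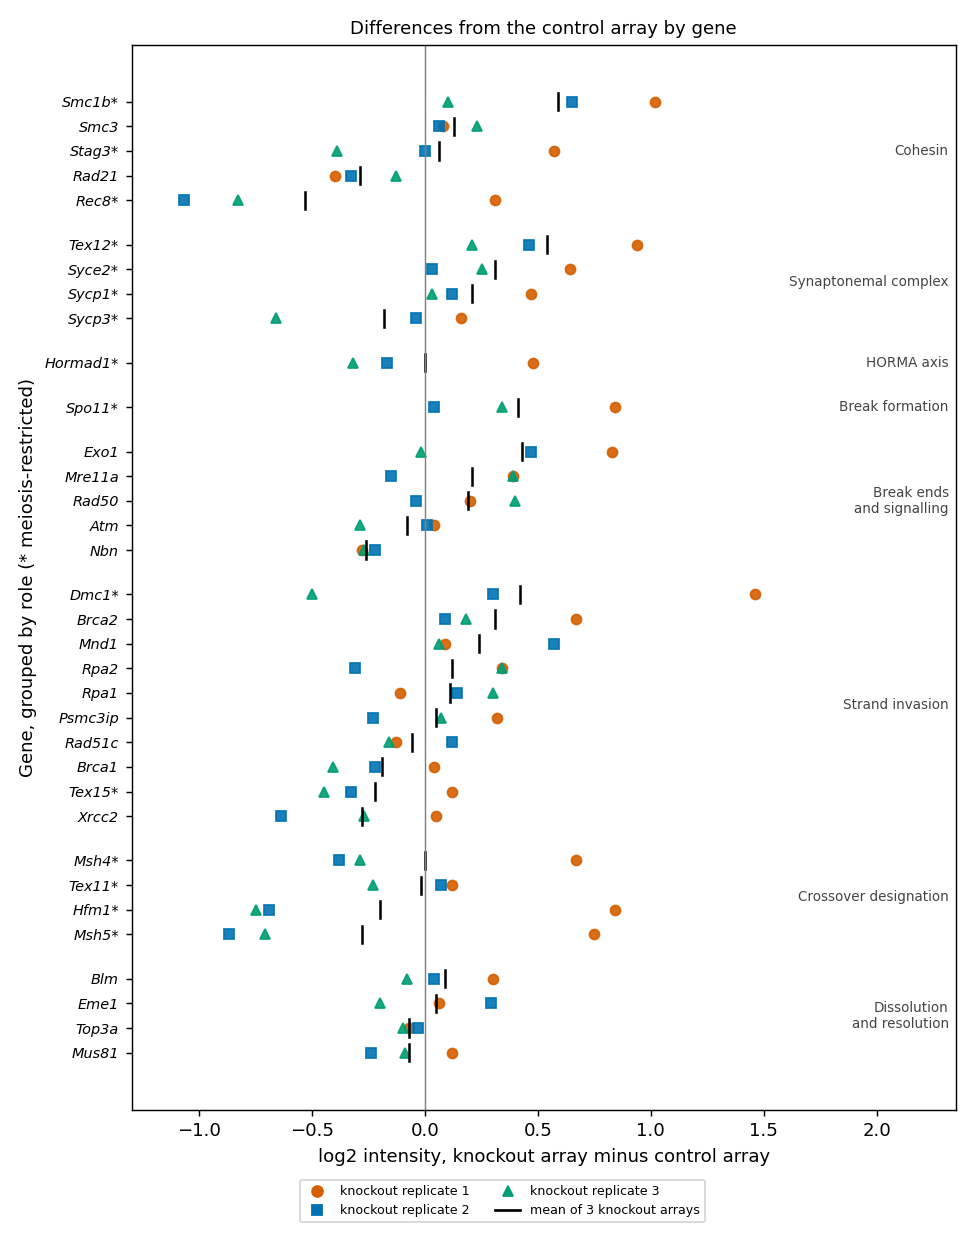
Log2 intensity of each knockout array minus the control array for the 34 measured genes, grouped by role, with the mean of the 3 knockout arrays as a black bar and an asterisk on meiosis-restricted genes. Replicate 1 (orange circles) is rightmost of the 3 knockout arrays in every gene with an asterisk, from 0.12 for Tex11 and Tex15 to 1.46 for Dmc1.

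The upstream sequences of 5 genes are shown, because these genes had large differences or a wide spread among the knockout arrays. They are the 250 bases before the annotated start in RefSeq (build GRCm38.p6), written 5′ to 3′ along the gene. Capitals mark the motifs searched on both strands: the E-box CACGTG, the E2F-type GCGGGAA, the core ACANTGT of the DMRT1 site and the STRA8 motif CNCCTCAG.
Tex12, chr9:50561269-50561518, minus strand: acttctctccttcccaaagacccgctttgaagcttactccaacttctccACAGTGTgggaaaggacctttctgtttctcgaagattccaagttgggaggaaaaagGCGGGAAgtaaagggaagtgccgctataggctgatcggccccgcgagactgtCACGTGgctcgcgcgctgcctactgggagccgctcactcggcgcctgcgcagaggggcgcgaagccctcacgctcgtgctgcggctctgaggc
Smc1b, chr15:85131958-85132207, minus strand: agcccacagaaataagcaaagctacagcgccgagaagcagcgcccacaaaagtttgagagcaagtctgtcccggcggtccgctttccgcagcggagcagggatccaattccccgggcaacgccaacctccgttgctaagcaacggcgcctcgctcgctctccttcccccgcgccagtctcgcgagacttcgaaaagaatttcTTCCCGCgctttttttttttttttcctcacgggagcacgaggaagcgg
Msh5, chr17:35046623-35046872, minus strand: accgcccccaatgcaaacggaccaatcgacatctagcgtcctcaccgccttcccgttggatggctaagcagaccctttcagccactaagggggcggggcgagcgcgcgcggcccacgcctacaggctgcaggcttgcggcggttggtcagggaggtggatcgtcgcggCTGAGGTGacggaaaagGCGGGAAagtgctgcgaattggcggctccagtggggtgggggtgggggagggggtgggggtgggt
Dmc1, chr15:79605110-79605359, minus strand: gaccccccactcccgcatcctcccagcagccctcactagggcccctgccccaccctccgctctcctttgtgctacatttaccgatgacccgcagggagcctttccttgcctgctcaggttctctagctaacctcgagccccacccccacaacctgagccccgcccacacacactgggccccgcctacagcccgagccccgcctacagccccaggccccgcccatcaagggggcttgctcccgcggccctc
Rec8, chr14:55617916-55618165, plus strand: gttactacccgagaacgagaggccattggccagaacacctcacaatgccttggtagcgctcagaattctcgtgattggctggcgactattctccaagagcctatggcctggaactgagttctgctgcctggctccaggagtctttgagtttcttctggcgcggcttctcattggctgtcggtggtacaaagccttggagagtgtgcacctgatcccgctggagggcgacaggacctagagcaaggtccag
Tex12 had an E-box, an E2F-type motif and a DMRT1 core, Smc1b had an E2F-type motif, and Msh5 had a STRA8 motif beside an E2F-type motif. Dmc1 and Rec8 had none of these letters in this window.

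Of the 44 listed genes, 35 had a promoter in the RefSeq table, measured on the array or not. The E2F-type motif was in 11 of the 35 (31.4%), against 4.38% of 27025 genes in the table. The 11 were Brca2, Hormad1, Hsf2bp, Msh5, Prdm9, Rnf212, Rpa2, Smc1b, Syce2, Sycp3 and Tex12. The E-box was in 8 (22.9%), against 6.86% of all genes, and these were Eme1, Hormad1, Rpa1, Stag3, Syce2, Sycp1, Sycp3 and Tex12. Hormad1, Syce2, Sycp3 and Tex12 had both.

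The STRA8 motif was in 5 of the 35 (14.3%, against 7.39% of all genes), Hfm1, Hormad2, Msh5, Prdm9 and Syce2. In Syce2 it overlapped the E2F-type motif. The DMRT1 core was in 1 (2.86%, against 7.43%), Tex12. By use, the E2F-type motif was in 9 of 19 meiosis-restricted and 2 of 16 generally used genes, and the E-box in 6 of 19 and 2 of 16. The whole table was the comparison and was not matched for base composition or gene type. A match is a string of letters and not evidence of binding. In mice, E2F6 and the MGA-MAX pair, which read E2F-type and E-box sequences, are known to silence germ-line genes in somatic cells.

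**Figure D3:**
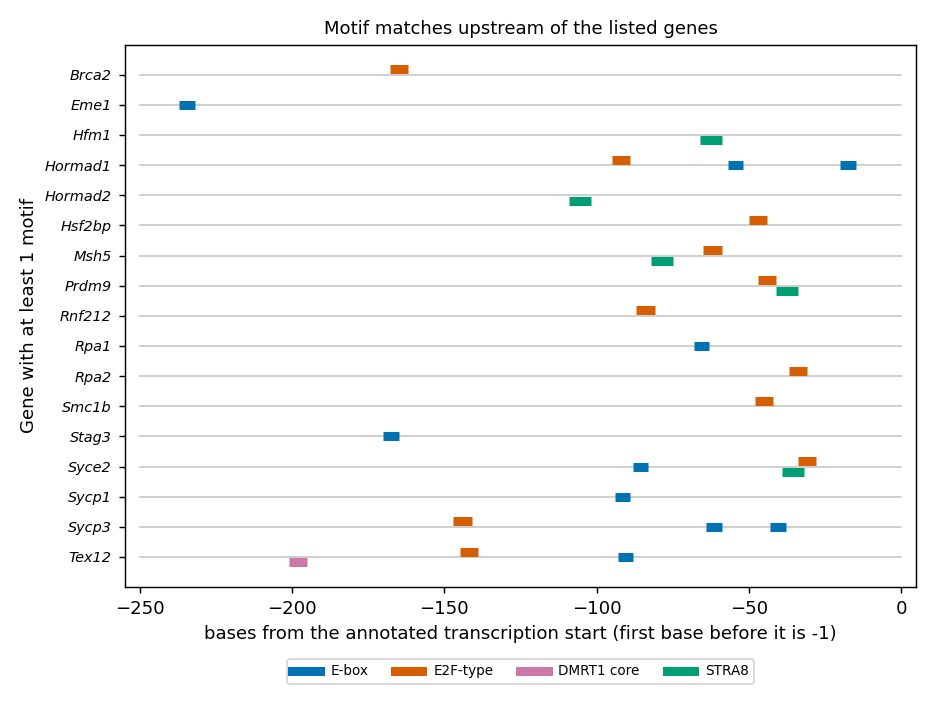
Positions of the 4 motifs in the 250 bases before the annotated start, in bases from the start, for the listed genes with at least 1 match; coloured blocks span each match, and for a gene with 2 annotated starts 1 start with a match is drawn. E2F-type matches lie in 11 genes and E-box matches in 8, and the DMRT1 core is in Tex12 alone among the listed genes with a promoter.

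Cohesin subunits did not move together. Smc1b (NM_080470), which replaces Smc1a in meiotic cohesin, had intensities of 5929 in the control and 12049, 9334 and 6376 in knockout replicates 1, 2 and 3. All 3 knockout arrays were above the control, replicate 3 by little, and the fold of 1.51 did not pass (difference 0.59 ± 0.35 SE, adjusted p = 0.92). Rec8 (NM_020002) had intensities of 605 in the control and 752, 288 and 339 in the knockouts. Its signal was dim, below the array medians of 1005 to 1011 in every array. Replicate 1 lay above the control and the other two well below it, so the groups overlapped, and the difference was -0.53 ± 0.46 (adjusted p = 0.996).

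Stag3, the meiotic SA subunit, was at 17187 in the control and at 25586, 17156 and 13077 in the knockouts, with the control inside the knockout range and a difference of 0.06 ± 0.35. The subunits also used in mitosis were tighter. Rad21, the mitotic kleisin, was at 16244 in the control and at 12310, 12922 and 14807 in the knockouts. All 3 were below the control, with a difference of -0.29 ± 0.26 (adjusted p = 0.996). Smc3, common to all cohesin rings, differed by 0.13 ± 0.25, with an SD of 0.09 among the knockouts. Rec8 and Rad21, alternative kleisins of the ring, both had negative differences that did not pass, but replicate 1 was the highest knockout array for Rec8 and the lowest for Rad21.

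Of the synaptonemal complex, 4 of 6 listed genes were measured, and their median difference was 0.26. Tex12 (NM_025687), a central element protein, had intensities of 4475 in the control and 8564, 6143 and 5181 in the knockouts. All 3 knockout arrays were above the control, and the difference of 0.54 ± 0.31 did not pass (adjusted p = 0.921). Syce2, the binding partner of Tex12, was at 7398 in the control and at 11510, 7570 and 8801 in the knockouts, a difference of 0.31 ± 0.30. Sycp1, the transverse filament, was at 13154 in the control and at 18228, 14300 and 13423, a difference of 0.21 ± 0.28. In all 3 genes replicate 1 stood above the other arrays, and the knockout array nearest the control lay within 0.21 of it on the log2 scale.

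Sycp3, a lateral element protein of the chromosome axis, also had replicate 1 highest, but its replicates 2 and 3 lay below the control. It was at 14509 in the control and at 16240, 14141 and 9213 in the knockouts, a difference of -0.18 ± 0.33 with the control inside the knockout range. Hormad1, which marks unsynapsed axes, was at 3187 in the control and at 4456, 2828 and 2556 in the knockouts. Its mean difference was 0.00 ± 0.33, with replicate 1 above the control and the other two below it.

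Spo11, the enzyme that makes the meiotic breaks, was the 1 measured gene of break formation. Its intensity was 1251 in the control and 2238, 1286 and 1587 in the knockouts. Replicate 1 stood apart and replicate 2 was close to the control, and the difference of 0.41 ± 0.33 did not pass (adjusted p = 0.989).

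Genes of break ends and their signalling are used in all dividing cells, and 5 of 6 were measured, with a median difference of 0.19. Nbn (NM_013752), a subunit of the Mre11 complex, was at 9564 in the control and at 7858, 8185 and 7958 in the knockouts. The knockouts lay within an SD of 0.03 on the log2 scale, all below the control, with a difference of -0.26 ± 0.25 (adjusted p = 0.996). Its partners Mre11a, the nuclease, and Rad50, the bridging ATPase, differed by 0.21 ± 0.30 and 0.19 ± 0.27, and replicate 2 was the lowest array for both. Atm, the kinase that signals breaks, differed by -0.08 ± 0.27. Exo1, an exonuclease of end resection, was at 498 in the control and at 885, 689 and 491 in the knockouts, a difference of 0.43 ± 0.33. It too was below the array medians of 1005 to 1011 in every array. Its replicates 1 and 2 were above the control and replicate 3 level with it.

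Among 10 measured genes of strand invasion, the meiotic recombinase Dmc1 (NM_010059) had the widest spread of all 34. Its intensity was 1513 in the control and 4150, 1859 and 1066 in the knockouts. The control lay inside a knockout range of 1.96 on the log2 scale, with replicate 1 well above it and replicate 3 below, and the difference was 0.42 ± 0.57 (adjusted p = 0.999). Its partners were flatter. Psmc3ip (Hop2), which loads the recombinase together with Mnd1, differed by 0.05 ± 0.29, and Mnd1 by 0.24 ± 0.29 with replicate 2 the highest array.

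Brca2, a protein of homologous repair, was at 8195 in the control and at 13039, 8731 and 9280 in the knockouts. All 3 were above the control and replicate 1 clearly so, with a difference of 0.31 ± 0.30. Xrcc2, a protein of homologous repair, was at 1968 in the control and at 2039, 1264 and 1635 in the knockouts, a difference of -0.28 ± 0.31 with replicate 1 level with the control. Brca1 differed by -0.19 ± 0.28 and Rad51c, also of homologous repair, by -0.06 ± 0.26. Rpa1 and Rpa2, subunits of the single-strand DNA binding complex, differed by 0.11 ± 0.27 and 0.12 ± 0.32. Tex15, a germ cell protein needed for meiotic repair, differed by -0.22 ± 0.29.

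In all 4 measured genes of crossover designation the knockout arrays lay on both sides of the control. Msh5 (NM_013600) was at 2569 in the control and at 4312, 1409 and 1568 in the knockouts. Its partner Msh4, with which it forms a clamp on DNA, was at 1040 in the control and at 1659, 801 and 853. Hfm1, a helicase of the same pathway, was at 799 in the control and at 1434, 496 and 476. In these 3 genes replicate 1 lay above the control and replicates 2 and 3 below it, so the groups overlapped.

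The differences were -0.28 ± 0.52 for Msh5, 0.00 ± 0.39 for Msh4 and -0.20 ± 0.53 for Hfm1, with SDs among the knockouts of 0.89, 0.58 and 0.90. Without replicate 1 the difference was -0.79 for Msh5, -0.33 for Msh4 and -0.72 for Hfm1, and none passed. Tex11, an X-linked gene whose protein joins synapsis and crossover formation, was steadier, at 12364 in the control and at 13392, 12943 and 10561 in the knockouts, a difference of -0.02 ± 0.27.

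Dissolution and resolution genes, which unlink or cut the joined DNA, were the flattest group, from -0.07 to 0.09. Blm, a helicase, differed by 0.09 ± 0.27 and its partner Top3a by -0.07 ± 0.25. The nuclease Mus81 and its partner Eme1 differed by -0.07 ± 0.27 and 0.05 ± 0.28. All 4 intervals lay inside a 2-fold change.

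Further genes of meiosis and meiotic repair did not pass either. Of 77 such genes, 57 were measured. Of these, 0 were called lower and 0 higher (limma, smallest adjusted p = 0.814), against 0.499% and 0.156% of all transcripts. An unadjusted p under 0.05 was found for 0 of them, against 6.42% of all transcripts. Their median difference was 0.01. The 4 with the smallest p were Fignl1, an ATPase, at 0.63 ± 0.30, Cdk2, a kinase needed for synapsis, at -0.59 ± 0.28, Stag1, a mitotic cohesin subunit, at 0.51 ± 0.25, and Chek2, a checkpoint kinase, at 0.62 ± 0.35. Knockout replicate 1 was the highest of the knockouts in 30 of the 57 (52.6%).

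The order of the knockout arrays in the meiosis-restricted genes was also that of the differentiating spermatogonia markers. Over the 5 measured of 6 (Kit, Stra8, Sohlh1, Sohlh2 and Prss50), the median difference from the control was 0.69 in replicate 1, -0.15 in replicate 2 and -0.55 in replicate 3. Stra8 is also among the further genes of meiosis above, and the medians of replicates 2 and 3 are its own values. Their summed intensity was 44395 in the control and 61226, 47298 and 36770 in the knockouts. On the log2 intensity scale Stra8, a gene of meiotic entry, was at 11.21 in the control and 12.11, 11.06 and 10.67 in the knockouts. Prss50, a testis serine protease, was at 12.04 in the control and 13.27, 11.12 and 10.48 in the knockouts. Both had replicate 1 above the control and the other two below. Sohlh1 and Sohlh2, transcription factors of spermatogonia, lay above the control by 0.69, 0.53 and 0.50 and by 0.66, 0.44 and 0.00, also highest in replicate 1. Kit, the receptor of these cells, did not have this order, at 14.14 in the control and 13.91, 13.94 and 13.52 in the knockouts.

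The 10 markers of germ cells of all stages had medians of 0.21, -0.01 and 0.12 in knockout replicates 1, 2 and 3. Ddx4, an RNA helicase, was at 14.39 on the log2 scale in the control and 14.67, 14.68 and 14.58 in the knockouts. Dazl, a germ cell RNA-binding protein, lay 0.59, 0.08 and 0.05 above the control. The spread was widest for Nanos3, a regulator of early germ cells, with a knockout range of 1.22 and replicate 3 the highest. The summed intensity of these markers, of which Sycp3 is one, was 144808 in the control and 172788, 147651 and 157583 in the knockouts, so replicate 1 was the highest here too. The 10 markers of undifferentiated spermatogonia had their highest knockout value in replicate 3 in 7 genes, with medians of -0.14, -0.11 and 0.25. Their summed intensity was above the control in every knockout array, at 63210 in the control and 70989, 68845 and 78768 in the knockouts. Of these markers, 4 had a difference above 0 and 6 below. Pou5f1 had the smallest p of them, at 0.89 ± 0.28 (limma, adjusted p = 0.414). The part of germ cell composition in the order of the arrays was not tested.

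The 10 pachytene markers had the same order of medians at a smaller size, with 0.20, 0.12 and -0.07 in knockout replicates 1, 2 and 3. Their summed intensity did not keep this order, at 10628 in the control and 12932, 10049 and 11345 in the knockouts. Replicate 1 was the highest knockout array in 5 of the 10. The 10 spermatid markers had another order, with medians of -0.17, 0.12 and -0.14 and summed spermatid intensities of 3346 in the control and 3070 to 3313 in the knockouts. No marker was at 0, and no background value was used here to say which were expressed. The Sertoli list (11 of 12 measured) had medians of -0.39, 0.02 and 0.02, with summed intensities of 128950 in the control and 98098 to 104453 in the knockouts, and 1 of its genes, Cst9, fell (difference -2.89 ± 0.41, limma, adjusted p = 0.0111). Without Cst9 and Clu, left out after their values were seen, the sum of the other 9 was 64720 in the control and 68857 to 75068 in the knockouts. Of the 11 genes, 4 (Wt1, Gata4, Dhh and Inhba) lay above the control in all 3 knockout arrays, and none of these passed. Another 5 (Cst9, Clu, Fshr, Sox9 and Amh) lay below it in all 3, and of these only Cst9 passed. Amh was level with the control in replicate 2 (6201 against 6211). The shares of the list were 36.4% above and 45.5% below, against 25.6% and 24.1% of all transcripts. Fshr differed by -1.12 ± 0.32 (limma, adjusted p = 0.301) and Sox9 by -0.56 ± 0.28. The 7 measured proliferation markers had medians of 0.16, 0.03 and 0.10. The part of each in the members' values was not tested.

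The 6 Leydig cell markers had their lowest knockout value in replicate 1 in 6 of 6, with medians of -0.12, 0.56 and 0.66, the reverse of the order in the meiosis-restricted genes. Their summed intensity was 69004 in the control and 70260, 106369 and 109070 in the knockouts. Hsd3b1, a steroid dehydrogenase, had the smallest p of these, at 0.76 ± 0.26 (limma, adjusted p = 0.479). The median of 5 macrophage markers was 0.51 with 0 calls, and that of 5 peritubular myoid markers -0.09 with 0 calls.

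**Figure D4:**
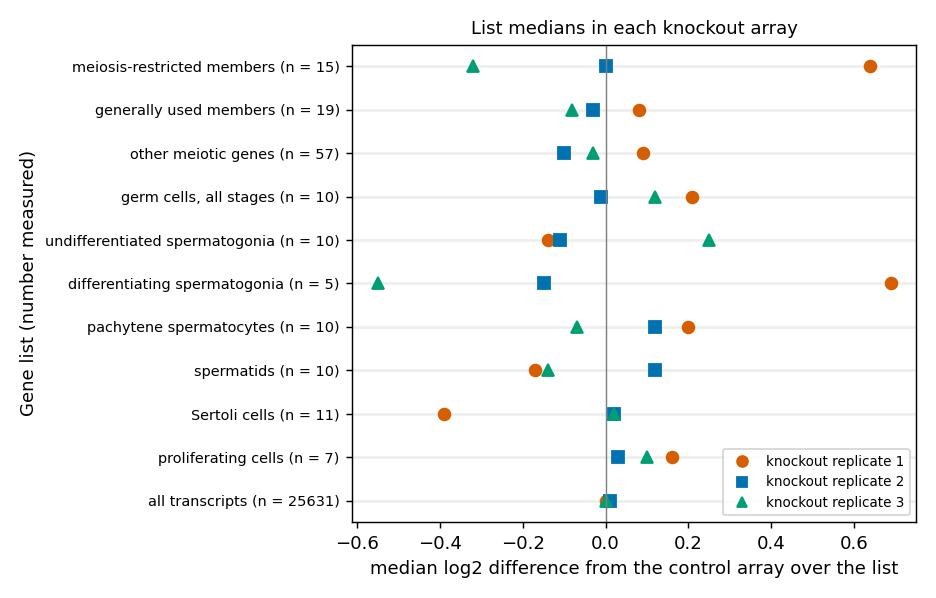
Median log2 difference from the control array in each knockout array, for the meiosis-restricted and generally used members and for other gene lists, with the number of measured genes in brackets. Replicate 1 lies at 0.64 for the meiosis-restricted members and 0.69 for differentiating spermatogonia markers, and all 3 arrays lie within 0.01 of 0 over all transcripts.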

How the data were processed

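Total RNA of whole testes was hybridised to a one-colour NimbleGen array with Cy3, per the labels' protocols. The authors deposited linear intensities, with 1 value for each RefSeq transcript on each array. RMA is the tool named in the submitters' processing notes. Its version and settings are not given in the sources used here. Intensities ran from 23.9 to 65156, with array medians of 1005 to 1011. The number of arrays limits the precision.

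Log2 was taken (all values exceeded a floor of 1). Of 25631 transcripts, 17777 (69.4%) were named through a RefSeq table of GRCm38.p6. For each gene the transcript with the highest mean stood in. The fit used limma 3.58.1 in R 4.3.3 (lmFit, eBayes), with 2 residual and 7.97 prior degrees of freedom, two-sided, adjusted over all transcripts. Motifs were counted with Python 3.11.15. The test was tried on simulated data: of 50 transcripts each, 22 changed by 1.5 and 49 changed by 3 were recovered, with 11 calls among 25431 unchanged.

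The members, lists, roles and tests were chosen with earlier results of these data known. A member is given with intensities in all arrays if it was among the 5 largest differences in a direction or lay over 0.5 on both sides of the control; others were added after their values were seen. Other lists give Dmrt1, Ddx4, Dazl, Kit, Stra8 and some of the genes with the smallest p, and Prss50 was chosen after its values were seen. For some lists no single gene is given. Alternatives left out each knockout array, normalised again, removed dim transcripts, averaged transcripts, and changed the prior, threshold or call rule.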

Additional observations from a re-analysis of the deposited data

How the results depend on the processing

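No member was called under any alternative run, including an adjusted p under 0.10. The members' median stayed between -0.07 and 0.09. No paired analysis was possible because only 1 control array exists and replicate numbers merely name the arrays. The variance priors, the filter on dim transcripts and the averaging of transcripts cannot move the difference of a member with 1 transcript. Under the 2 normalizations that can, 67 of 68 differences kept their sign, and Hormad1 (0.00 with arrays centred on their medians) did not. With 1 knockout array left out, 87 of 102 kept it. The sign turned in 13 genes, whose differences then ranged from -0.20 to 0.29 for Stag3, -0.10 to 0.88 for Dmc1, -0.08 to 0.19 for Psmc3ip, -0.33 to 0.19 for Msh4, -0.02 to 0.17 for Blm, -0.25 to 0.16 for Hormad1, -0.79 to 0.02 for Msh5, -0.72 to 0.08 for Hfm1, -0.16 to 0.02 for Mus81, -0.07 to 0.18 for Eme1, -0.35 to 0.06 for Sycp3, -0.14 to 0.02 for Atm and -0.08 to 0.09 for Tex11. Without replicate 1 the median of the other meiotic genes was -0.10, and, in an alternative added after seeing the data, that of the meiosis-restricted members was -0.20, against 0.00 with all arrays. Over all transcripts, 40 higher calls became 69 with a variance trend, 75 at an adjusted p under 0.10 and 102 by the 2-fold rule, and 128 lower calls became 193 by that rule; leaving out an array gave 58 to 62 higher and 122 to 146 lower calls, with 62 higher without replicate 3. The causes were not tested. Every setting keeps the single control array, so none varies it. Signal over background was not used here.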
